A study of Mus musculus with 18 samples.

Results

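Row >3 cells are the crypt cells sorted for low Lgr5-GFP. The name places them above the border of the Lgr5+ zone, but the sort was by GFP alone and position was not measured in these libraries. Here, row >3 cells of the small intestine (SI) were compared with row >3 cells of the large intestine (LI). The 6 libraries were chosen by the sort and the site that the labels give, 3 from SI and 3 from LI, out of 18 libraries in the series, and the sites were compared unpaired. The other libraries hold centre cells (high GFP) and border cells (medium GFP) of both sites. All mice were untreated C57BL/6 animals of 8 to 20 weeks by the labels. SI and LI libraries alike came from mice with the allele Lgr5_eGFP_Iris_creERT2, in which GFP and an inducible Cre recombinase are made from the Lgr5 locus. The allele is known to be active in only a part of the crypts, so the sort could take cells of those crypts only. Live cells were sorted as Epcam+ and 7-AAD negative, and RNA was sequenced with a stranded SMART-Seq kit, which amplifies cDNA from very little RNA. The sources used here name neither the mouse behind each library nor the stretch of SI that was taken. The p-values therefore measure the spread between these libraries.

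Cells that leave the crypt base divide a few more times and take on absorptive or secretory fates. In the SI, absorptive cells digest and take up fat, sterols, sugars and peptides, bile acids are reabsorbed in the ileum, and Paneth cells with their antimicrobial granules sit at the crypt base. The LI has no Paneth cells, recovers salt and water, and carries a thick mucus layer over a dense microbiota, and its identity along the gut is marked by posterior Hox genes, whereas Gata4 marks the proximal SI.

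The 6 libraries held between 15757652 and 31940965 counts on genes, and the lowest total belonged to SI replicate 3. Levels are given as CPM, the counts per 1e+06 counts of the library after TMM scaling, always in the order of replicates 1, 2 and 3. Epcam+ cells were recovered at both sites, as the 8 epithelial markers summed to between 5821 and 8679 CPM in every library. Vil1, which bundles actin in microvilli, was the only one of them called between the sites with all libraries, with 814, 527 and 599.6 CPM in SI and 334, 287 and 329 in LI, and the keratins Krt8 and Krt18 were also higher in SI without SI replicate 3. The 20 immune markers summed to 15.8, 15.3 and 4.81 CPM in SI and 10.2, 8.42 and 8.49 CPM in LI, and the 17 stromal, endothelial and neural markers to 10.6, 8.89 and 6.44 CPM in SI and 2.83, 4.81 and 4.13 CPM in LI. None of these markers of other cells was called with all libraries and no replicate block by edgeR, or by DESeq2. Of them 1 and 0 were under an unadjusted p of 0.05 by edgeR, against 4193 of all 26717 genes tested. With all libraries and the replicate as a block within each site, edgeR called 1 immune marker, Cd79a, as lower in SI. Without the SI replicate 3 libraries, edgeR called the stromal marker Vim as higher in SI, with 6.81, 6.22 and 0.155 CPM in SI and 0, 1.49 and 1.54 in LI, and DESeq2 called the leukocyte marker Ptprc as higher and the B cell marker Cd79a as lower in SI. Lgr5 stood at 8.24, 13.5 and 1.4 CPM in SI and 6.7, 24 and 13.3 in LI, far under the centre cells with 255, 203 and 119.8 CPM in SI and 127, 119 and 112 CPM in LI, and its row >3 levels overlapped between the sites (log2 fold change -0.88 ± 0.79, edgeR adjusted p = 0.726; ± values on log2 fold changes are standard errors). Replicate 2 of both sites came from male and the others from female tissue by their Y-linked genes Ddx3y and Eif2s3y, so the sex was balanced between the sites.

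SI replicate 3 stood apart from the other SI libraries. The 30 genes that had at least 20 CPM in all LI libraries and at least 20 times less in SI replicate 1 had a median level of 1.09% of their LI mean in SI replicate 2, and this was 79.7% in SI replicate 3. Conversely, 43 genes that were high in SI replicates 1 and 2 and low in LI had a median level of 21.9% of their SI mean in SI replicate 3. SI replicate 3 libraries of border and centre cells did the same, with LI genes at medians of 84.7% and 64.3%. The 5 genes with the most counts, 2 of them the mitochondrial ribosomal RNAs, took 41.1%, 38.8% and 40.5% of counts in SI replicate 3 of row >3, border and centre cells, against 28.9% to 33.3% in every other library. The LI libraries held genes of the SI at medians between 0.399% and 1.37%. Genes of the LI in these libraries thus go against their SI label. Whether they held tissue of both sites or were mislabelled, and the part of the RNA composition, was not tested, and every SI value and count from all libraries below includes them. All tests were therefore repeated in a fit without the replicate 3 libraries of the SI, called "without SI replicate 3" below. The 30 LI genes include Car1, Car2, Reg4, Retnlb, Foxd2, Hoxa7, Hoxa9, Hoxa10, Sult1a1, Ces1g and Cbs, which are described below without a p from this fit, since their levels in SI replicate 3 were a reason to leave it out. The choice also bears on other genes for which SI replicate 3 lay near LI. Counts and p-values from this fit for such genes are therefore no independent test. The counts for each list of genes that follows are given from both fits, and a called gene that is named below also passed without SI replicate 3 unless its value from that fit is given.

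**Figure D1:**
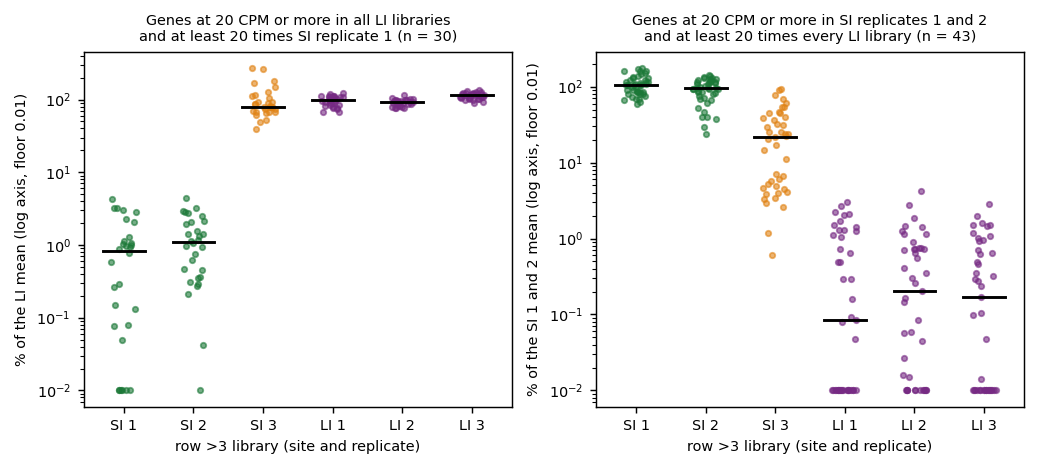
Levels of site genes in each row >3 library, on log axes in percent. Left, the 30 LI genes as a percentage of their mean LI level, right, the 43 SI genes as a percentage of their mean in SI replicates 1 and 2; each point is 1 gene, and values under 0.01% are drawn at 0.01%. SI replicate 3 lies with the LI libraries on the left, at a median of 79.7%, and at a median of 21.9% on the right.

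In row >3 cells, SI and LI differed in 1092 of 26717 genes tested, or 4.09% (edgeR quasi-likelihood test, adjusted p under 0.05). This is what "called" and "passed" mean below, in the fit of all libraries with no replicate block unless another is named. Of these, 738 genes (2.76%) were higher in SI and 354 (1.32%) were lower, and 796 differed by more than 1 on the log2 scale. The libraries of the sites did not overlap for 1026 of the called genes, against 4735 (17.7%) of all genes tested. Without SI replicate 3, 3184 of 26181 genes (12.2%) were called, 1781 (6.8%) higher and 1403 (5.36%) lower in SI. Of the 1092 genes, 1074 were also called in that fit, all in the same direction. The count fell to 379 without SI replicate 1, to 486 without LI replicate 2 and to 547 without LI replicate 3, and rose to 1686 without SI replicate 3 of row >3 cells alone. The median log2 fold change over all genes tested was 0 and the median of its absolute value 0.51. The counts of each list below stand against the shares of all genes, namely 2.76% higher and 1.32% lower in SI. Without SI replicate 3 these shares are 6.8% and 5.36%.

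Both subunits of the sterol export pump were among the 15 genes higher in SI that had the smallest p, and that of Abcg5 was the smallest of all genes tested. Abcg5 (ENSMUSG00000040505, chr17:84658234-84683011 of mm10) had 55.5, 33.8 and 17.5 CPM in SI and 0, 0.117 and 0.144 in LI (log2 fold change 8.58 ± 0.6, edgeR adjusted p = 5.53e-11). Abcg8 (chr17:84676302-84700333), its partner in the pump, had 50.01, 25.7 and 17.2 CPM in SI and 0.638, 0 and 0.24 in LI (log2 fold change 6.77 ± 0.65, edgeR adjusted p = 8.27e-07). All SI libraries lay far above all LI libraries for both genes, with SI replicate 3 the lowest of the SI, and the pair overlaps on opposite strands, so reads of one may have been counted for the other.

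Npc1l1 (chr11:6211013-6230143), which takes cholesterol into the enterocyte, had 148, 44.5 and 52.6 CPM in SI and 0.0456, 0.196 and 0 in LI (log2 fold change 9.78 ± 0.88, edgeR adjusted p = 8.03e-07). Soat2 (chr15:102150526-102163469), which esterifies that cholesterol, had 47.7, 25.4 and 23 CPM in SI and 1.28, 0.744 and 0.528 in LI (log2 fold change 5.23 ± 0.41, edgeR adjusted p = 4.32e-08). Mttp (chr3:138089854-138144968), which loads lipid onto apolipoprotein B, had 228, 67.5 and 104 CPM in SI and 3.74, 3.05 and 2.54 in LI (log2 fold change 5.42 ± 0.44, edgeR adjusted p = 2.02e-06). For each of these genes the lowest SI library was above the highest LI library by more than an order of magnitude. Abcc2 (chr19:43782192-43840740), an exporter of conjugates, had 43.9, 14.8 and 35.9 CPM in SI and 0.684, 0.587 and 0.336 in LI (log2 fold change 5.85 ± 0.45, edgeR adjusted p = 5.18e-08). Slc1a1, a glutamate transporter, had 80.8, 41 and 29.3 CPM in SI and 4.38, 4.58 and 4.51 in LI (log2 fold change 3.49 ± 0.3, edgeR adjusted p = 4.16e-07). Slc43a2, an amino acid transporter, had 236, 129 and 92.5 CPM in SI and 17.6, 11.5 and 16 in LI (log2 fold change 3.34 ± 0.31, edgeR adjusted p = 2.44e-06). The LI libraries thus held a low level of both amino acid transporters, whereas Abcc2 was under 1 CPM there.

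Gata4 (chr14:63198922-63271692), the transcription factor of the proximal gut, had 14.7, 13.1 and 6.44 CPM in SI and no count in any LI library, a level at least 286-fold higher in SI (bound from 3 counts over the LI group; edgeR adjusted p = 2.44e-06). Rragd, a GTPase that relays amino acid supply to mTORC1, had 23.2, 19.9 and 7.61 CPM in SI and 0, 0.117 and 0 in LI, from 3 counts in LI, a ratio of 434 (95% interval 148 to 2104). Ccl25 (chr8:4325210-4360020), the chemokine that draws T cells to the SI, had 159.8, 87.4 and 97.2 CPM in SI and 12, 10.6 and 7.15 in LI (log2 fold change 3.53 ± 0.25, edgeR adjusted p = 2.20e-08). Gcnt2, which branches poly-lactosamine chains, had 29.6, 18.9 and 11.6 CPM in SI and 0.0456, 0.587 and 0.48 in LI (log2 fold change 5.72, edgeR adjusted p = 8.27e-07). Prap1, a secreted protein of the SI, had 35.6, 16.5 and 20.03 CPM in SI and 0.866, 1.41 and 0.864 in LI (log2 fold change 4.5, edgeR adjusted p = 2.01e-06). Dnm1, a dynamin of endocytosis, had 84.8, 34.5 and 50.5 CPM in SI and 5.38, 5.52 and 3.93 in LI (log2 fold change 3.51, edgeR adjusted p = 8.27e-07). Bcl2l15, a member of the BCL2 family, had 58.6, 32.7 and 14.1 CPM in SI and 0, 0.0391 and 0.048 in LI, from 2 counts in LI, a ratio of 1384 (95% interval 383 to 11430.0). Ccl25, Dnm1 and Prap1 overlap an expressed gene on the opposite strand, with mean levels of 71.6, 90.1 and 15.4 CPM. It was not stated whether counting used the strand.

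**Figure D2:**
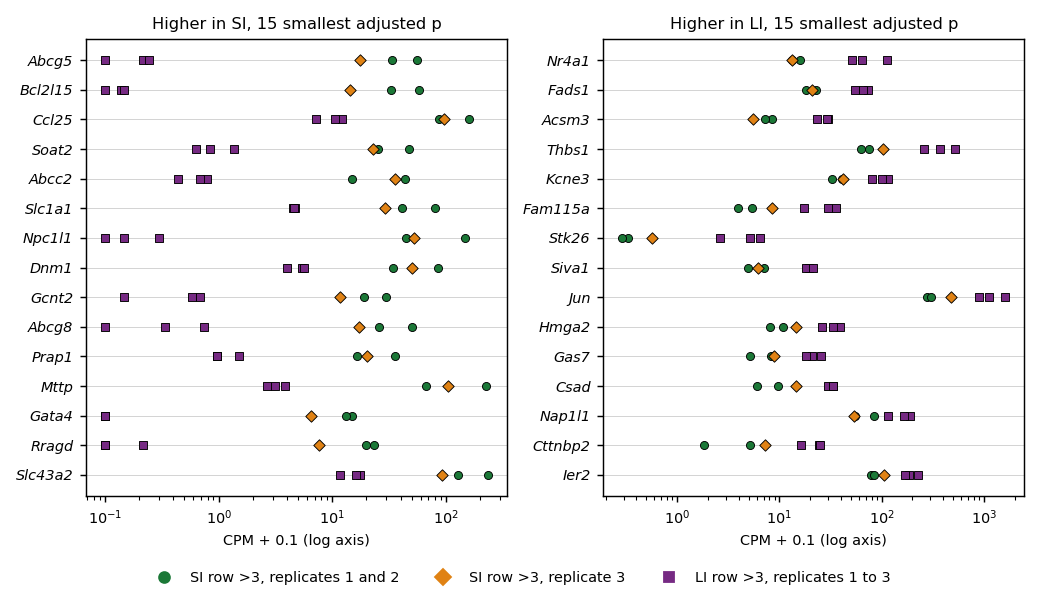
CPM (plus 0.1, log axis) of the 15 genes with the smallest adjusted p in each direction, in each row >3 library. Circles are SI replicates 1 and 2, diamonds SI replicate 3 and squares the LI libraries; no gene shown overlaps between the sites, and for most SI genes the diamond is the lowest SI point.

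The RefSeq start sites of Abcg5 and Abcg8 that are used here face away from each other 110 bases apart (the position of Abcg8 given above is from GENCODE, in which the gene begins further upstream, inside Abcg5), so their windows before the start share sequence. It is shown with the window of Prap1, since these genes were among the clearest between the sites and carry matches to the GATA motif AGATAA (reverse TTATCT), in capitals below. Sequences are from RefSeq on GRCm38.p6, 5′ to 3′ on the strand of the named gene, for Abcg5 chr17:84682992-84683120 on the minus strand, which ends 20 bases into the gene, and for Prap1 chr7:140093146-140093415 on the plus strand.
Abcg5: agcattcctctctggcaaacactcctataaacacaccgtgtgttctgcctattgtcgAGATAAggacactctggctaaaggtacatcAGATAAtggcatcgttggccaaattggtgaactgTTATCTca
Prap1: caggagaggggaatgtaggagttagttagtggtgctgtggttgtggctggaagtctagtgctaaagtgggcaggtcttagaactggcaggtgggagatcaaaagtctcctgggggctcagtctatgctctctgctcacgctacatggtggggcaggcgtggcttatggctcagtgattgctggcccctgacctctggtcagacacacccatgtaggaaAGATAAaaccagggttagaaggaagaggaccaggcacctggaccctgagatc
The windows of Abcg5 and Abcg8 share 3 matches, and Prap1 has 1. In windows of 300 bases, from 250 before to 50 after the start, AGATAA was found on either strand for 5 of 13 SI genes with a window (Abcg5, Abcg8, Prap1, Bcl2l15 and Dnm1), for 2 of 10 LI genes (Acsm3 and Jun) and in 11.2% of all 32851 windows. CATAAA, a core of CDX sites, was in 1 of the 13 (Gcnt2) and 1 of the 10 (Siva1) against 11.9% of all windows, and CAAAGTCCA (HNF4) and CCAATAAA (HOX13) were in none of them against 0.475% and 1.12%. A match of letters is a description and not a bound site.

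Of 15 transcription factors known for SI identity or SI absorptive cells, 9 were higher in SI (11 without SI replicate 3), against 2.76% (6.8%) of all genes. None was lower, and the median log2 fold change was 1.73. Gata5, a sister of Gata4, had 69.9, 59.8 and 25.9 CPM in SI and 1.32, 2.78 and 0.96 in LI (log2 fold change 4.92 ± 0.59, edgeR adjusted p = 1.85e-04). Maf, a factor of differentiating enterocytes, had 130.2, 32.6 and 75.5 CPM in SI and 1.23, 1.17 and 0.576 in LI (log2 fold change 6.3 ± 0.91, edgeR adjusted p = 0.0015). Creb3l3, which drives apolipoprotein genes, had 13, 2.1 and 11.2 CPM in SI and 0.912, 0.274 and 0.864 in LI (log2 fold change 3.69 ± 0.74, edgeR adjusted p = 0.00504). SI replicate 2 was the lowest SI library for both Maf and Creb3l3, yet no library overlapped with the other site. Hnf4g, Nr5a2, Tbx3, Osr2 and Nr1i3 were the other factors called, with log2 fold changes of 1.29, 0.77, 1.55, 2.84 and 1.73. The calls of Nr1i3 and Nr5a2 were lost without SI replicate 1 or any single LI library, that of Nr1i3 also without SI replicate 3 of row >3 cells and that of Nr5a2 without SI replicate 2 (adjusted p of up to 0.233 and 0.241). Nr1h4, the bile acid receptor FXR, had 81.6, 46.8 and 66 CPM in SI and 32.1, 31.5 and 37.8 in LI and did not pass with all libraries (adjusted p = 0.119 with all and 0.00335 without SI replicate 3, edgeR). It was called in 5 of 17 alternative fits. DESeq2 with all libraries was among them, as was the replicate block within each site, which is no test of the sites.

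Of 20 fat absorption genes, 11 were higher and none lower in SI (13 and 2 without SI replicate 3), against 2.76% and 1.32% (6.8% and 5.36%) of all genes. Their median log2 fold change was 2.43 when genes at 0 in LI are set to their bound (3.09 as fitted). Apoa1, the main protein of high density lipoprotein, had 428, 58.3 and 188 CPM in SI and 0.228, 0.0391 and 0.24 in LI (log2 fold change 10.39 ± 1.3, edgeR adjusted p = 1.06e-04). Apoa4, which is packed into chylomicrons, had 36.9, 28 and 15.1 CPM in SI and 0 in all LI libraries, at least 670.5-fold higher in SI (edgeR adjusted p = 0.00486). Fabp1, a fatty acid carrier, had 16.3, 8.32 and 13.4 CPM in SI and 0.228, 0.274 and 0 in LI (log2 fold change 6.13 ± 0.75, edgeR adjusted p = 3.24e-05). SI replicate 2 was the lowest SI library for Mttp and Fabp1, and all SI libraries were well above LI for each of these genes. Apob, the lipoprotein backbone, did not pass with edgeR, with 571, 152 and 387 CPM in SI and 107, 196 and 210.1 in LI. It did with DESeq2 and without SI replicate 2. Fabp2 did not pass with edgeR or DESeq2, with 235, 107 and 208 CPM in SI and 65, 91 and 129.9 in LI. Scarb1, a receptor for high density lipoprotein, and Plin2, a lipid droplet coat, were lower in SI without SI replicate 3, with log2 fold changes of -4.96 and -0.86.

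For sterols, 6 of 10 genes were higher in SI (7 higher and 1 lower without SI replicate 3), against 2.76% of all genes. Abca1, which moves cholesterol onto lipoproteins, was one of the 6 beside the 4 named above, with a log2 fold change of 1.32. Its call was lost without SI replicate 1 or any single LI library (adjusted p of up to 0.258). Lima1, which helps NPC1L1 to recycle, had 361, 343 and 346 CPM in SI and 340.0, 283 and 316 in LI and did not pass (log2 fold change 0.16, edgeR adjusted p = 0.688). Bile acid genes were called for 4 of 12, all higher in SI (7 higher and 1 lower without SI replicate 3), against 2.76% of all genes. Fabp6, the ileal bile acid carrier, had 546, 124 and 303 CPM in SI and 2.14, 0.196 and 0.048 in LI (log2 fold change 8.68 ± 1.22, edgeR adjusted p = 6.66e-04). Slc10a2, the ileal bile acid importer, had 21, 3.13 and 9.08 CPM in SI and 0.957, 0.861 and 1.25 in LI (log2 fold change 3.46 ± 0.89, edgeR adjusted p = 0.0375). Fgf15, the hormone that ileal cells send to the liver, had 3.29, 0.0382 and 4.81 CPM in SI and 0, 0.0391 and 0.048 in LI, a ratio of 79.98 (95% interval 22.1 to 660.4) from 2 counts in LI. It overlapped between the sites through SI replicate 2, which held 1 count. The call of Slc10a2 was lost without SI replicate 1 or any single LI library, and that of Fgf15 without SI replicate 1 or LI replicate 2 (adjusted p of up to 0.236 and 0.0738 over the alternatives). Fgf15 was also lost with the replicate block within each site and with the groups compared only.

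Sugar digestion was called for 8 of 17 genes, all higher in SI (10 without SI replicate 3), against 2.76% (6.8%) of all genes. This count fell to 3 without SI replicate 1. Sis, the sucrase-isomaltase of the brush border, had 373, 63.8 and 153 CPM in SI and 0.182, 1.96 and 2.02 in LI (log2 fold change 7.13 ± 1.06, edgeR adjusted p = 0.00216). Lct, the lactase, had 29.9, 6.57 and 15.9 CPM in SI and 0.274, 0.235 and 0.336 in LI (log2 fold change 5.95 ± 0.95, edgeR adjusted p = 0.00151). Treh, the trehalase, had 9.5, 2.33 and 7.92 CPM in SI and 0.274, 0.117 and 0.384 in LI (log2 fold change 4.67 ± 0.72, edgeR adjusted p = 2.94e-04). The 3 disaccharidases were highest in SI replicate 1 and lowest in SI replicate 2, and no library overlapped between the sites. Slc5a4a, a relative of the sodium-glucose transporters, was low, with 0.93, 0.153 and 1.09 CPM in SI and 0 in LI, at least 15.1-fold higher, and its call was lost without SI replicate 1 or 3 or any single LI library (adjusted p of up to 0.224). The call of Slc5a4a was also lost with either replicate block.

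Peptide and amino acid uptake held the highest share of called genes among the lists, 16 of 21 higher in SI and none lower (17 and none without SI replicate 3). Of all genes 2.76% (6.8%) were higher. The median log2 fold change of the list was 3.49. Slc15a1, the importer of di- and tripeptides, had 36.5, 5.69 and 20.9 CPM in SI and 0 in all LI libraries, at least 499.6-fold higher in SI (edgeR adjusted p = 6.10e-05). Slc7a9, a carrier of cystine and basic amino acids, had 50.2, 13.9 and 26.4 CPM in SI and 0, 0 and 0.048 in LI, a ratio of 2187 (95% interval 393 to 86390.0) from 1 count in LI. Slc6a19, a transporter of neutral amino acids, had 20.8, 2.79 and 10.6 CPM in SI and 0, 0.274 and 0.144 in LI (log2 fold change 6.24 ± 1.08, edgeR adjusted p = 0.00176). Enpep, an aminopeptidase of the brush border, had 371, 92.1 and 140.1 CPM in SI and 3.28, 1.72 and 2.35 in LI (log2 fold change 6.36 ± 0.76, edgeR adjusted p = 3.92e-04). For all of these SI replicate 2 was the lowest and SI replicate 1 the highest SI library, and the sites did not overlap. Anpep, the most abundant aminopeptidase, had 1092, 157 and 553 CPM in SI and 105, 83.8 and 139 in LI and did not pass (log2 fold change 2.46, edgeR adjusted p = 0.0721). It did with DESeq2.

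Among vitamin, iron and metal genes 4 of 21 (19%) were called, all higher in SI, against 2.76% of all genes. Without SI replicate 3, 6 were higher and 3 lower, against 6.8% and 5.36%. Rbp2, a retinol carrier of enterocytes, had 14.2, 3.32 and 6.21 CPM in SI and 0.365, 0.313 and 0.576 in LI (log2 fold change 4.27 ± 0.62, edgeR adjusted p = 1.57e-04). Amn and Cubn form the receptor for vitamin B12 with intrinsic factor, and Amn had 17.1, 6.41 and 9.63 CPM in SI and 0.593, 2.58 and 2.21 in LI (log2 fold change 2.62 ± 0.46, edgeR adjusted p = 0.00151). Cubn had 146, 8.09 and 79.6 CPM in SI and 1.96, 1.49 and 3.69 in LI (log2 fold change 5.05 ± 1.27, edgeR adjusted p = 0.0454), with SI replicate 2 many times under the other SI libraries, and it was lost without SI replicate 1 or 3 or any single LI library (adjusted p of up to 0.192). Slc40a1, the iron exporter ferroportin, had 24.5, 8.74 and 4.04 CPM in SI and 1.96, 2.19 and 3.6 in LI (log2 fold change 2.31 ± 0.55, edgeR adjusted p = 0.0187) and was lost without SI replicate 1, LI replicate 1 or LI replicate 2 (adjusted p of up to 0.317). Heph, the oxidase that works with ferroportin, had 105, 51.6 and 122 CPM in SI and 56.7, 73.4 and 83.6 in LI and did not pass.

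Chloride and bicarbonate secretion split by member, with 4 of 16 genes higher and 2 lower in SI (4 and 5 without SI replicate 3). Cftr, the apical chloride channel, had 130.2, 96.6 and 169 CPM in SI and 226, 365 and 336 in LI (log2 fold change -1.23 ± 0.2, edgeR adjusted p = 5.22e-04). Kcne3 (chr7:100176502-100184869), the subunit that keeps the basolateral potassium channel KCNQ1 open for secretion, had 32.4, 40.5 and 42.1 CPM in SI and 79.96, 116 and 99.8 in LI (log2 fold change -1.37 ± 0.17, edgeR adjusted p = 3.64e-05). Both were lower in every SI library than in any LI library, SI replicate 3 included. Ano6, a calcium-activated scramblase and channel, had 153, 92.7 and 80.04 CPM in SI and 28.2, 33.7 and 27.6 in LI (log2 fold change 1.87 ± 0.21, edgeR adjusted p = 1.30e-05). Slc26a6, an exchanger of chloride for bicarbonate and oxalate, had 49, 11 and 19.6 CPM in SI and 0.729, 0.939 and 0.864 in LI (log2 fold change 4.97 ± 0.74, edgeR adjusted p = 7.58e-04). Guca2b, the peptide uroguanylin, had 28.2, 20.3 and 19.9 CPM in SI and 3.83, 5.87 and 6.38 in LI (log2 fold change 2.09 ± 0.4, edgeR adjusted p = 0.00329). These 3 were higher in every SI library. Guca2a, the related peptide guanylin, had 387, 427 and 384 CPM in SI and 199, 170.4 and 287 in LI and passed only in the fit of the groups compared.

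Host defence genes were called for 7 of 26 genes as higher and 1 as lower in SI (9 and 5 without SI replicate 3). Reg3g, a lectin that kills Gram-positive bacteria, had 842, 369 and 124 CPM in SI and 1.78, 1.84 and 1.78 in LI (log2 fold change 7.95 ± 1.06, edgeR adjusted p = 0.00105). Reg3b, its relative, had 1394, 504 and 303 CPM in SI and 10.1, 3.33 and 6.19 in LI (log2 fold change 6.82 ± 1.24, edgeR adjusted p = 0.00794). Duox2, which makes hydrogen peroxide at the apical surface, had 349.8, 234 and 82.1 CPM in SI and 32.6, 14.3 and 15.7 in LI (log2 fold change 3.41 ± 0.72, edgeR adjusted p = 0.0189). Nos2, the inducible nitric oxide synthase, had 106, 40.8 and 28.5 CPM in SI and 2.32, 0.783 and 0.48 in LI (log2 fold change 5.62 ± 1.24, edgeR adjusted p = 0.024). SI replicate 3 was the lowest SI library for all 4 genes and no library overlapped between the sites. Tlr4, the receptor for lipopolysaccharide, was the gene lower in SI, with 0.863, 0.687 and 0.776 CPM in SI and 2.6, 3.33 and 2.98 in LI (log2 fold change -1.93 ± 0.43, edgeR adjusted p = 0.0102). Leaving out LI replicate 2 or 3 brought the count of genes higher in SI to 3, and Nos2, Duox2 and Reg3b lost their call there (adjusted p of up to 0.122, 0.106 and 0.0575). Nos2 and Duox2 were also lost without SI replicate 1, Nos2 without LI replicate 1, and Tlr4 without SI replicate 1, SI replicate 2 or LI replicate 2 (adjusted p of up to 0.0656). Pigr, which carries IgA across the epithelium, had 4045, 3643 and 3815 CPM in SI and 5127, 3691 and 4623 in LI and did not pass.

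Paneth cell genes were found in the low GFP sort of the SI, although Paneth cells sit at the crypt base. The position of the cells sorted and the source of this RNA were not tested. Lyz1 had 549, 2388 and 601 CPM in SI centre cells and 926, 1874 and 103 in SI border cells. Of 21 genes, 10 were higher in SI (14 without SI replicate 3) and none lower, against 2.76% (6.8%) of all genes higher. Their median log2 fold change was 8.93 when the 9 genes at 0 in LI are set to their bound. Defa24, an alpha-defensin, had 1168, 1966 and 71.1 CPM in SI and 0, 0.235 and 0.048 in LI (log2 fold change 13.28 ± 1.65, edgeR adjusted p = 1.25e-04). Lyz1, the Paneth lysozyme, had 888, 1115 and 46.7 CPM in SI and 0, 0.0783 and 0 in LI, a ratio of 27920.0 (95% interval 7730.0 to 230600.0) from 2 counts in LI. Mmp7, which activates the defensins, had 158, 191 and 9.16 CPM in SI and 0.866, 0.0783 and 0 in LI (log2 fold change 8.58 ± 1.38, edgeR adjusted p = 0.00118). Itln1, a lectin for microbial sugars, had 872, 1166 and 67.6 CPM in SI and 0.821, 0.587 and 0.48 in LI (log2 fold change 10.11 ± 1.44, edgeR adjusted p = 0.00131). SI replicates 1 and 2 were close to each other, while SI replicate 3 was far under both for these 4 genes, although still above LI. As the cells were measured in bulk, fewer cells of a type and less RNA per cell cannot be told apart, here and in all results that follow. The count was 7 without LI replicate 2 or LI replicate 3, where Lyz1 was lost with an adjusted p of up to 0.11, and it was 18 with DESeq2. Alpha-defensins are close paralogues, so reads may have been assigned to the wrong member.

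MHC class II genes, which present peptides to CD4+ T cells, were higher in SI for 5 of 10 genes (7 without SI replicate 3), against 2.76% (6.8%) of all genes. Cd74, the invariant chain, had 312, 250.3 and 66.5 CPM in SI and 7.48, 2.04 and 4.51 in LI (log2 fold change 5.5 ± 1.3, edgeR adjusted p = 0.0343). H2-Aa, a class II chain, had 43, 30.8 and 10.7 CPM in SI and 0.182, 0.274 and 0.432 in LI (log2 fold change 6.58 ± 1.3, edgeR adjusted p = 0.0113). Ciita, the factor that switches the class II genes on, had 26, 22.9 and 11.1 CPM in SI and 0.547, 0.352 and 0.48 in LI (log2 fold change 5.46 ± 1.07, edgeR adjusted p = 0.0117). All SI libraries were above all LI libraries, and SI replicate 3 was the lowest of the SI. No class II gene was called without SI replicate 1, LI replicate 2 or LI replicate 3, 1 without LI replicate 1 and 2 without SI replicate 2 (adjusted p over the alternatives of up to 0.158, 0.0784 and 0.078). Ptprc, the pan-leukocyte marker that most cells of immune origin carry, stood at 9.66, 8.28 and 1.94 CPM in SI and 2.19, 2.9 and 5.52 in LI. Itgam, an integrin of myeloid cells that was not on the list of immune markers, had 67.6, 57.9 and 7.06 CPM in SI and 0.821, 1.72 and 1.78 in LI (log2 fold change 4.95 ± 0.84, edgeR adjusted p = 0.00452). Adgre1 and Csf1r, markers of macrophages, were at 0 in all libraries and at up to 0.0391 CPM. C1qa, a complement gene of macrophages, had 0, 0.115 and 30.7 CPM in SI and 42.2, 30.3 and 45.7 in LI, the opposite order. It is 1 of the 30 LI genes by which SI replicate 3 stood apart. In SI replicates 1 and 2 class II levels were higher in centre than in row >3 cells, with Cd74 at 577 and 567 CPM and H2-Aa at 105 and 104 CPM there. The part of immune cells in the class II levels was not tested.

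Goblet genes were high at both sites, and 3 of 23 (13%) were called, all higher in SI, against 2.76% of all genes. Without SI replicate 3, 3 were higher and 3 lower, against 6.8% and 5.36%. DESeq2 without SI replicate 3 called 8 as higher and 5 as lower. For 10 of the 23 all SI libraries were above all LI libraries, against 17.7% of all genes without overlap in either direction. Muc2, the gel-forming mucin, had 22889, 16727 and 17573 CPM in SI and 13337, 8561 and 11308 in LI (log2 fold change 0.78, edgeR adjusted p = 0.777). Every SI library was above every LI library for Muc2. It passed in 2 of 17 alternatives, the groups compared only and DESeq2 without SI replicate 3. The membrane mucins Muc13 and Muc3 were higher in SI. Muc13 had 1887, 1306 and 1119.7 CPM in SI and 927, 656 and 860.5 in LI (log2 fold change 0.82 ± 0.17, edgeR adjusted p = 0.00636). Muc3 had 438, 197 and 603 CPM in SI and 96.2, 115 and 101 in LI (log2 fold change 1.99 ± 0.45, edgeR adjusted p = 0.0252). The call of Muc13 was lost without SI replicate 1 or LI replicate 2 and that of Muc3 without SI replicate 1 or any single LI library (adjusted p of up to 0.113 and 0.0937). Reg4, the marker of deep crypt secretory cells of the LI, had 84.3, 77.1 and 2557 CPM in SI and 2964, 2230.0 and 3204 in LI (log2 fold change -5.06 without SI replicate 3). Retnlb, an LI goblet cell product, had 1.53, 2.29 and 141 CPM in SI and 151, 122 and 208 in LI (edgeR adjusted p = 0.759 with all libraries, and a log2 fold change of -6.34 without SI replicate 3). Both were among the 3 goblet genes lower in SI in that fit.

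Enteroendocrine genes were called for 5 of 24 members, all higher in SI, but DESeq2 called none of them. The count lay between 1 and 7 with 1 library left out. With the replicate as a block within each site 0 were higher and 1 was lower in SI. SI replicate 3 was the lowest SI library for 21 of the 24, and no member separated the sites with all 6 libraries. Scg2, a granin, had 6.94, 5.65 and 0 CPM in SI and 0, 0 and 0.144 in LI, a ratio of 118 (95% interval 40.2 to 569.8) from 3 counts in LI. Cck, the hormone that empties the gall bladder, had 3.82, 7.82 and 0 CPM in SI and 0, 0.0783 and 0.432 in LI. Ghrl, the hormone ghrelin, had 12.8, 3.09 and 0.0776 CPM in SI and 0.274, 0.391 and 0.624 in LI. The call of Cck was also lost without SI replicate 2, LI replicate 1 or LI replicate 2, and that of Ghrl without SI replicate 1 or any single LI library. Without SI replicate 3, 12 members were higher and 1, the hormone gene Sct, was lower in SI, with 19.4, 22.9 and 47.2 CPM in SI and 66.9, 41.6 and 66.4 in LI for Sct (log2 fold change -1.4 ± 0.29 in that fit). With all libraries Sct did not pass (edgeR adjusted p = 0.633). Chga and Chgb, the most abundant members, did not pass in either fit, with 93.9, 112 and 12.1 CPM in SI and 16.2, 41.4 and 51.4 in LI for Chga.

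Tuft cell genes gave no call with all libraries by edgeR, with 4 of 18 under an unadjusted p of 0.05 (4193 of all 26717 genes were) and 2 called by DESeq2. SI replicate 3 was the lowest SI library for 17 of the 18 members. In the fit without SI replicate 3, 13 of 18 were higher in SI and none lower. Trpm5, the cation channel of taste and tuft cells, had 89.1, 94.7 and 22.7 CPM in SI and 22.8, 29.2 and 20.4 in LI (log2 fold change 1.99 ± 0.42, edgeR adjusted p = 0.00824, without SI replicate 3). Pou2f3, the factor that specifies tuft cells, had 21.4, 18.6 and 5.67 CPM in SI and 7.93, 7.71 and 8.01 in LI (log2 fold change 1.41 ± 0.31, edgeR adjusted p = 0.00251, without SI replicate 3). SI replicates 1 and 2 were above all LI libraries for both genes, and SI replicate 3 lay within or under the LI range.

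Surface glycans and the cytoskeleton held a few large differences. St3gal4, a sialyltransferase, had 294, 146 and 119.9 CPM in SI and 2.87, 2.74 and 3.36 in LI (log2 fold change 5.97 ± 0.75, edgeR adjusted p = 5.51e-04). St3gal6, its relative, had 29.4, 33.1 and 17 CPM in SI and 3.33, 5.21 and 4.61 in LI (log2 fold change 2.6 ± 0.29, edgeR adjusted p = 1.11e-05). Galnt6, which starts mucin-type chains, had 455, 412 and 182 CPM in SI and 135, 109 and 116 in LI (log2 fold change 1.55 ± 0.23, edgeR adjusted p = 3.64e-04). With B3gnt7, whose call was lost without LI replicate 3 (adjusted p of up to 0.0887), these were the 4 called of 22 glycan enzymes, all higher in SI (6 higher and 5 lower without SI replicate 3). Krt20, a keratin of differentiated intestinal cells, had 727, 449.5 and 370.4 CPM in SI and 30.3, 34.2 and 46.7 in LI (log2 fold change 3.8 ± 0.55, edgeR adjusted p = 0.0016). Tjp1, the tight junction protein ZO-1, had 212, 172 and 186 CPM in SI and 127, 112 and 117 in LI (log2 fold change 0.68 ± 0.14, edgeR adjusted p = 0.00727), whose call was lost without SI replicate 1 with an adjusted p of 0.0632. Both were higher in every SI library, and no other of the 21 claudins, junction proteins and keratins was called with all libraries by edgeR. DESeq2 called 3 as higher. There were 7 higher and 1 lower without SI replicate 3.

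Of the 15 genes with the smallest adjusted p among those lower in SI, 3 belonged to the immediate-early response, the genes that cells switch on within minutes of a stimulus. Nr4a1 (ENSMUSG00000023034, chr15:101254269-101274795), an orphan nuclear receptor, had 13.1, 15.8 and 13.3 CPM in SI and 113, 64.2 and 51.7 in LI (log2 fold change -2.44 ± 0.27, edgeR adjusted p = 1.11e-05). Jun (chr4:95049034-95052222), a subunit of AP-1, had 278, 304 and 482 CPM in SI and 1621, 1116 and 906 in LI (log2 fold change -1.77 ± 0.23, edgeR adjusted p = 1.26e-04). Ier2 (chr8:84661331-84662852) had 78.2, 84.4 and 106 CPM in SI and 226, 187 and 171 in LI (log2 fold change -1.12 ± 0.18, edgeR adjusted p = 4.91e-04). For these genes LI replicate 1 was the highest library and every SI library, SI replicate 3 included, lay under all LI libraries. Of 21 members, 10 were lower in SI (12 without SI replicate 3), against 1.32% (5.36%) of all genes, and none was higher. The median log2 fold change was -1.12, and the sites did not overlap for 16, against 17.7% of all genes in either direction. Fos, the partner of Jun, had 216, 205 and 311 CPM in SI and 859, 674 and 553 in LI (log2 fold change -1.51, edgeR adjusted p = 0.0152). Egr1 had 197, 169 and 195 CPM in SI and 649, 538 and 352 in LI (log2 fold change -1.46, edgeR adjusted p = 0.00369). Atf3 had 72.1, 84.2 and 56.4 CPM in SI and 296, 193 and 132 in LI (log2 fold change -1.54, edgeR adjusted p = 0.00452). Dusp1, a phosphatase of MAP kinases, had 24.2, 24.8 and 52.3 CPM in SI and 179, 143 and 127 in LI (log2 fold change -2.16, edgeR adjusted p = 0.0157). The count was 6 without SI replicate 1 or SI replicate 2, where Dusp1 and Fos were lost (adjusted p of up to 0.0878 and 0.0748), and Fos was also lost without LI replicate 1. These genes also respond to tissue dissociation, and its part in the difference was not tested.

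Heat shock genes, which respond to stress of cells as well, were lower in SI for 4 of 10 members, with 2 called without SI replicate 3 and none without LI replicate 2. The count was 9 with the replicate as a block within each site, a fit that is no test of the sites. Hspa8, the constitutive HSP70, had 1014, 932 and 656 CPM in SI and 1273, 1348 and 1291 in LI (log2 fold change -0.59, edgeR adjusted p = 0.0282). Hspd1, the mitochondrial HSP60, had 264, 362 and 247 CPM in SI and 404, 547 and 501 in LI (log2 fold change -0.73, edgeR adjusted p = 0.0126). Dnajb1, a cofactor of HSP70, had 29.3, 36.6 and 39.4 CPM in SI and 128, 91.4 and 51.7 in LI (log2 fold change -1.37, edgeR adjusted p = 0.0464; 0.0867 without SI replicate 3). The 3 genes were each lower in SI than in LI in all libraries. Every one of these calls was lost in some fits with 1 library left out, with adjusted p of up to 0.143, 0.136 and 0.208, and no heat shock gene passed without SI replicate 3 of row >3 cells alone.

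The other genes with the smallest p among those lower in SI had varied roles. Fads1 (chr19:10182888-10196877), a desaturase of polyunsaturated fatty acids, had 18.1, 23 and 20.7 CPM in SI and 55.3, 73 and 66.3 in LI (log2 fold change -1.66 ± 0.18, edgeR adjusted p = 1.11e-05). Acsm3 (chr7:119760923-119787513), a medium-chain acyl-CoA synthetase, had 8.37, 7.14 and 5.43 CPM in SI and 23.2, 29.8 and 29.4 in LI (log2 fold change -1.96 ± 0.22, edgeR adjusted p = 1.11e-05). Csad, which makes the precursor of taurine, had 5.94, 9.66 and 14.5 CPM in SI and 29.5, 33.7 and 33.1 in LI (log2 fold change -1.71, edgeR adjusted p = 3.98e-04). In these genes SI replicate 3 stayed close to the other SI libraries or moved only part of the way to LI. Thbs1 (chr2:118111876-118127133), the matrix protein thrombospondin 1, had 62.1, 74.9 and 103 CPM in SI and 524, 376 and 259 in LI (log2 fold change -2.28 ± 0.26, edgeR adjusted p = 2.53e-05). Hmga2 (chr10:120361275-120476469), a chromatin protein of growing tissue, had 7.94, 10.7 and 14.6 CPM in SI and 39.4, 33.2 and 25.8 in LI (log2 fold change -1.59 ± 0.22, edgeR adjusted p = 1.45e-04). Siva1, a pro-apoptotic protein, had 4.85, 6.98 and 6.13 CPM in SI and 19.4, 18.3 and 21.3 in LI (log2 fold change -1.72 ± 0.24, edgeR adjusted p = 1.08e-04). Nap1l1, a histone chaperone, had 54.4, 84.1 and 54.2 CPM in SI and 115, 188 and 167 in LI (log2 fold change -1.28, edgeR adjusted p = 4.57e-04). Stk26, a kinase of the Golgi, was low throughout, with 0.232, 0.191 and 0.466 CPM in SI and 5.11, 6.3 and 2.54 in LI (log2 fold change -4.12, edgeR adjusted p = 1.07e-04). Gas7, Cttnbp2 and Fam115a completed the 15 genes, with log2 fold changes of -1.57, -2.31 and -2.29. The 30 genes named by p in both directions kept their call in all 17 alternative fits.

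Stem cell genes and Wnt targets did not shift together, with 1 of 24 higher and 5 lower in SI (6 and 6 without SI replicate 3). Olfm4, a stem cell marker of the SI crypt, had 181, 396 and 9.63 CPM in SI and 0, 0.0783 and 0 in LI, a ratio of 7885 (95% interval 2183 to 65110.0) from 2 counts in LI, with SI replicate 3 far below the other SI libraries. Cd44, a hyaluronan receptor and Wnt target, had 23.5, 46.9 and 81.4 CPM in SI and 140.0, 297 and 206 in LI (log2 fold change -2.09 ± 0.39, edgeR adjusted p = 0.00744). Myc had 24.7, 31.6 and 24 CPM in SI and 48.9, 51.9 and 55.2 in LI (log2 fold change -0.96 ± 0.2, edgeR adjusted p = 0.00743). Tcf7, Ephb2 and Cdk6 were also lower in SI, with log2 fold changes of -1.29, -0.53 and -0.86. With 1 library left out between 1 and 4 members were called as lower, fewest without SI replicate 1 or LI replicate 3, and Ephb2 was lost without any one of the 6 libraries. Tcf7 and Cdk6 were lost without any one but SI replicate 2 (adjusted p of up to 0.17 and 0.215). Myc was lost without SI replicate 1 or LI replicate 3 (0.0847). Olfm4 was lost without LI replicate 2 or LI replicate 3 (adjusted p of up to 0.112). Smoc2 and Axin2, both Wnt-dependent genes of the crypt base, were higher in SI without SI replicate 3. Smoc2 had 44.1, 59.8 and 6.52 CPM in SI and 9.8, 20.3 and 15.1 in LI. Axin2 had 104, 151 and 40.1 CPM in SI and 62.1, 67.6 and 59.7 in LI.

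Of 24 S phase genes, 4 were called as lower in SI and none as higher. All 24 had a fitted log2 fold change under 0, with a median of -0.65 against 0 over all genes. Rrm2, a subunit of ribonucleotide reductase, had 18.8, 25.6 and 17.2 CPM in SI and 46.2, 60.1 and 47.2 in LI (log2 fold change -1.31 ± 0.22, edgeR adjusted p = 0.00104). Pcna, the sliding clamp, had 39.98, 43.2 and 33.9 CPM in SI and 52.1, 83.7 and 79.2 in LI (log2 fold change -0.87 ± 0.2, edgeR adjusted p = 0.0141). Its call was lost without SI replicate 1, SI replicate 3, LI replicate 2 or LI replicate 3 (adjusted p of up to 0.123). SI replicate 3 was the lowest SI library for 22 of the 24 genes, and without SI replicate 3 the median was -0.32 and 5 were called. With 1 library left out the count lay between 1 (without SI replicate 1 or LI replicate 2) and 9 (without SI replicate 2). None of 24 G2/M genes was called with all libraries by edgeR, with 6 under an unadjusted p of 0.05 (4193 of all 26717 genes were), nor by DESeq2, and none without SI replicate 3. Without SI replicate 2, 2 were lower in SI, and without LI replicate 1, 1 was. With the replicate as a block within each site, which is no test of the sites, 17 S phase and 12 G2/M genes were lower in SI. Mki67 stood at 843, 1285 and 522 CPM in SI and 1106, 1411 and 1071 in LI and passed without SI replicate 2.

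Among BMP, Notch and lineage regulators, 4 of 23 were higher and 1 was lower in SI (4 and 2 without SI replicate 3). Hes1, the main Notch target that blocks secretory fate, had 24.1, 22.8 and 29.3 CPM in SI and 43, 87.9 and 72.2 in LI (log2 fold change -1.42 ± 0.23, edgeR adjusted p = 6.83e-04). Dll1, a Notch ligand of secretory progenitors, had 106, 117 and 56.8 CPM in SI and 59.3, 42.9 and 41.4 in LI (log2 fold change 0.96, edgeR adjusted p = 0.0171). Gfi1, a factor of goblet and Paneth fate, had 19.3, 22.4 and 12.9 CPM in SI and 7.2, 6.3 and 6.62 in LI (log2 fold change 1.45, edgeR adjusted p = 0.0464). Hes1 was lower in every SI library than in any LI library and kept its call in all alternatives, whereas none of the 4 genes higher in SI was called without SI replicate 1 or LI replicate 2. Bmp3 and Bmp7 were the other ones called, with log2 fold changes of 1.3 and 2.14.

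Genes that mark the LI itself were mostly not called with all libraries. None of 32 Hox genes was called with all libraries by edgeR, with 8 under an unadjusted p of 0.05 (4193 of all 26717 genes were), nor by DESeq2. Without SI replicate 3, 17 of 30 were lower in SI, against 5.36% of all genes, and none was higher. Of the 17, 3 were among the 30 LI genes by which that library stood apart. Hoxa10 had 0.0332, 0 and 12.3 CPM in SI and 27.7, 22.6 and 24.7 in LI (log2 fold change -10.004 without SI replicate 3). Hoxa9 had 0, 0.191 and 33.5 CPM in SI and 34.1, 29.2 and 28.2 in LI. Hoxa7 had 0, 0.267 and 47.9 CPM in SI and 71.1, 47 and 61.2 in LI. SI replicates 1 and 2 lacked these posterior genes nearly or fully, and SI replicate 3 held them at close to LI levels or, for Hoxa10, between the other SI libraries and the LI. Hoxb9 was present at both sites, with 30.1, 33.2 and 62.3 CPM in SI and 81.7, 59.4 and 68.1 in LI. Its log2 fold change was -1.08 ± 0.24 without SI replicate 3, and its edgeR adjusted p with all libraries was 0.378. Of 9 factors of the LI, 3 were lower in SI without those libraries, Foxd2 (1 of the 30 LI genes) and Cdx2 among them, and none with all libraries. Cdx2 was also called with library size only and without SI replicate 3 of row >3 cells alone. Cdx2, the factor of the whole intestine, had 98.5, 85.4 and 200.1 CPM in SI and 250.5, 183 and 224 in LI. Its log2 fold change was -1.19 ± 0.16 without SI replicate 3, and its edgeR adjusted p with all libraries was 0.257. Barx2, put on the same list, was higher in SI in both fits, with 17.2, 16.8 and 4.89 CPM in SI and 1.46, 0.313 and 0.336 in LI (log2 fold change 4.25 ± 0.74, edgeR adjusted p = 0.00233).

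**Figure D3:**
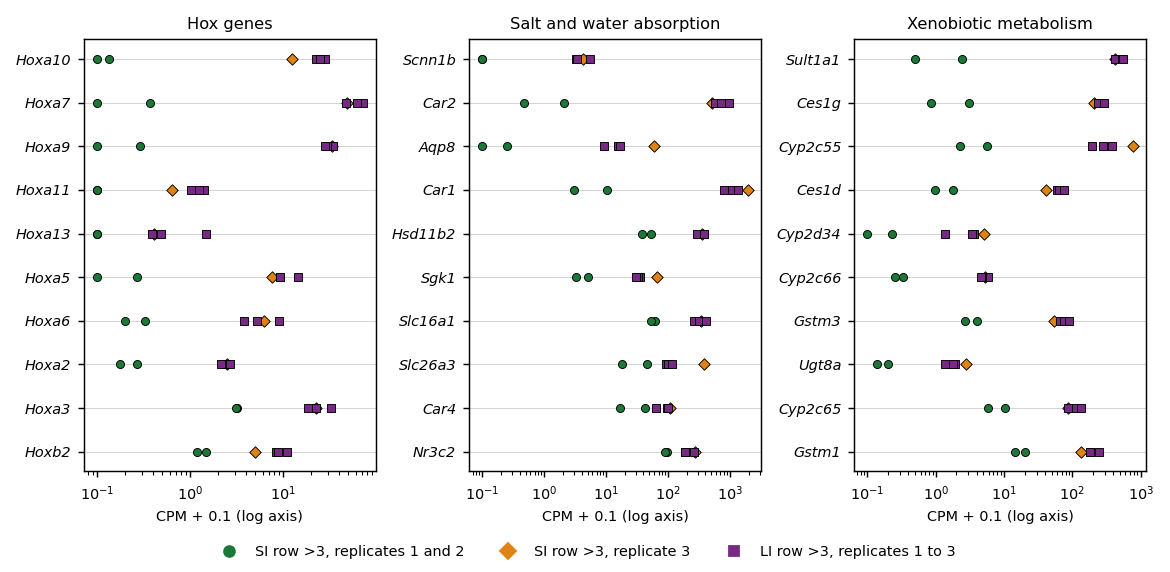
CPM (plus 0.1, log axis) in each row >3 library of up to 10 genes each of the Hox, salt and water and xenobiotic lists, those with the most negative log2 fold change among members called without SI replicate 3. SI replicates 1 and 2 lie below the LI libraries in every row, while SI replicate 3 lies near or above the LI libraries for most genes.

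Salt and water absorption showed the same arrangement, with 0 of 24 genes lower in SI with all libraries and 12 without SI replicate 3, 2 of them among the 30 LI genes. The shares of all genes lower in these fits were 1.32% and 5.36%. Car1, a carbonic anhydrase of colonocytes, had 2.89, 10.4 and 1939 CPM in SI and 795, 1086 and 1348 in LI (log2 fold change -7.3 without SI replicate 3). Car2 had 0.365, 2.02 and 506 CPM in SI and 578, 725 and 949 in LI (log2 fold change -9.28 without SI replicate 3). Scnn1b, a subunit of the epithelial sodium channel, had 0, 0 and 4.19 CPM in SI and 3.19, 3.29 and 5.42 in LI. SI replicate 3 was above all LI libraries for Car1, below them for Car2 and within their range for Scnn1b, while the other SI libraries were far under the LI for all 3 genes. Slc9a3, the sodium-proton exchanger of both sites, went the other way and was higher in SI in both fits, with 25.6, 3.93 and 15.6 CPM in SI and 1.09, 0.313 and 0.768 in LI (log2 fold change 4.4 ± 0.7, edgeR adjusted p = 6.13e-04). Prss27 and Ceacam20, brush border proteins put on this list, were higher in SI too, with log2 fold changes of 5.02 and 3.32. Their calls were lost without SI replicate 1 for Prss27 and without LI replicate 2 or LI replicate 3 for Ceacam20 (adjusted p of up to 0.061 and 0.0661).

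Of 40 genes of xenobiotic metabolism, 4 were higher and none lower in SI with all libraries, against 2.76% and 1.32% of all genes. Without SI replicate 3, 6 were higher and 16 lower, against 6.8% and 5.36%, and 4 of the 16 were among the 30 LI genes. Adh6a, an alcohol dehydrogenase, had 8.77, 2.56 and 2.48 CPM in SI and 0, 0.157 and 0.096 in LI (log2 fold change 5.68 ± 0.8, edgeR adjusted p = 2.99e-05) and kept its call in all alternatives. Cyp2c68 and Cyp3a25, cytochrome P450 enzymes, and Nr1i3, the receptor CAR, completed the 4, and only Adh6a of them was called without SI replicate 1 or LI replicate 2. Sult1a1, which sulphates phenols, had 0.398, 2.29 and 427 CPM in SI and 417, 528 and 544 in LI (log2 fold change -8.52 without SI replicate 3). Ces1g, a carboxylesterase, had 0.764, 2.98 and 211 CPM in SI and 271, 239 and 288 in LI (log2 fold change -7.13 without SI replicate 3). Both genes were near 0 in SI replicates 1 and 2 and close to the LI level in SI replicate 3. Abcb1a, the drug exporter P-glycoprotein, had 118, 85.2 and 475 CPM in SI and 253, 317 and 385 in LI, with SI replicate 3 above all LI libraries. Its log2 fold change was -1.59 ± 0.19 without SI replicate 3, and its edgeR adjusted p with all libraries was 0.855.

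**Figure D4:**
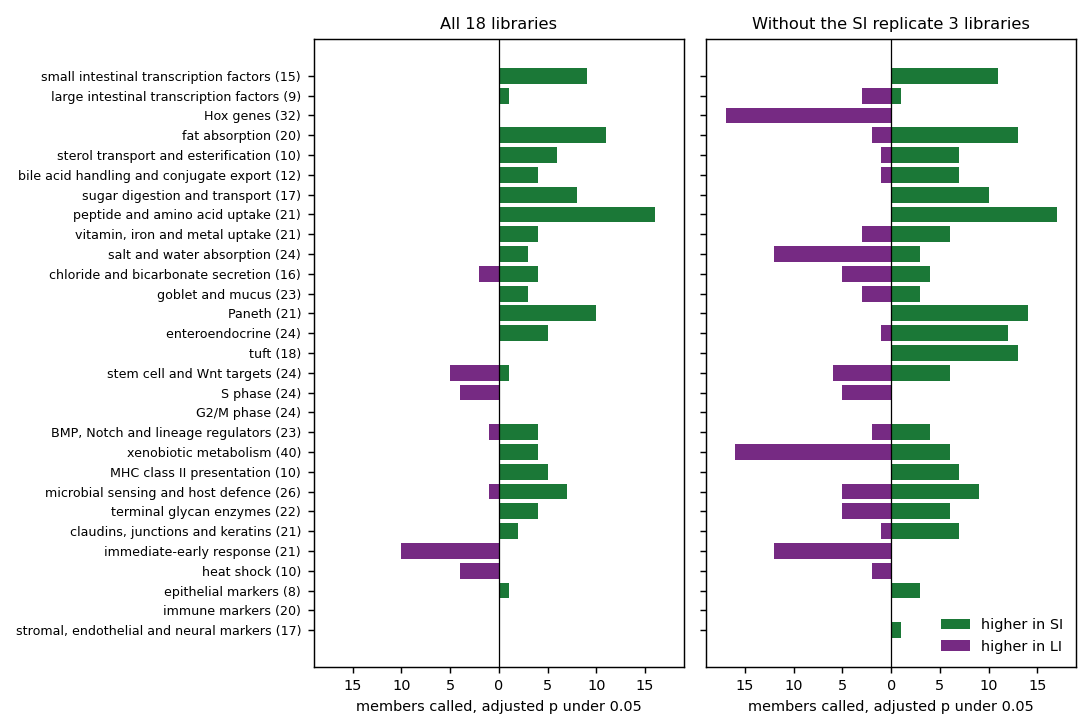
Members called higher (right) and lower (left) in SI for each list of genes, as counts, with all 18 libraries in the fit and without SI replicate 3. Absorptive and Paneth lists are to the right in both fits, whereas Hox, salt and water and xenobiotic genes extend to the left in the right panel, with 17, 12 and 16 genes, and not in the left panel.

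The site difference of row >3 cells was then set against that of centre and border cells, as the difference of the SI minus LI log2 fold changes. With all libraries no gene was called against centre cells (0%; 1800 genes under an unadjusted p of 0.05; 149 called by DESeq2) and none against border cells (0%; 757 genes under that p; none called by DESeq2). Within a site libraries of equal replicate number deviated together, although no source used here names the mouse. With the replicate as a block within each site 620 genes were called against centre cells (404 with a more positive and 216 with a more negative difference) and none against border cells (1698 genes under an unadjusted p of 0.05). Without SI replicate 3, 857 genes (3.27%) differed from centre cells, 674 (2.57%) towards SI and 183 (0.699%) towards LI, and 30 (0.115%) from border cells, 23 (0.0878%) towards SI and 7 (0.0267%) towards LI. Of single libraries, leaving out SI replicate 3 of centre cells gave 231 genes against centre and leaving out SI replicate 3 of row >3 cells 101 genes against centre and 1 against border.

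Of the 674 genes with a more positive difference from centre cells, 673 had a higher SI mean in row >3 than in centre cells (replicates 1 and 2), while the LI mean was higher in row >3 cells for 525 and lower for 149. With the block and all libraries, 272 of the 674 were called in the same direction. Slc43a2 had 30.4, 30.3 and 43.8 CPM in SI centre, 68.7, 41.6 and 66.2 in SI border and 236, 129 and 92.5 in SI row >3 cells, against 12.9, 7.52 and 8.53, 12.4, 10.5 and 10.9 and 17.6, 11.5 and 16 in LI (difference from centre 1.94 ± 0.39, edgeR adjusted p = 0.00627, without SI replicate 3). Krt20 had 40.5, 22.4 and 37.2 CPM in SI centre and 727, 449.5 and 370.4 CPM in SI row >3 cells, against 30.5, 20.9 and 22.8 and 30.3, 34.2 and 46.7 CPM in LI (difference 3.65 ± 0.74, edgeR adjusted p = 0.0266, without SI replicate 3). In both genes the LI libraries of centre and row >3 cells overlapped, while every SI row >3 library was above every SI centre library. Suox, the sulphite oxidase of mitochondria, had 20.7, 21.3 and 23.2 CPM in SI centre, 40.1, 29.2 and 28.6 in SI border and 133, 82.5 and 35.8 in SI row >3 cells, against 21.6, 23.5 and 20.3, 31.2, 26.9 and 19.1 and 13.7, 19 and 13.6 in LI, and was called against centre (2.88 ± 0.33, edgeR adjusted p = 1.83e-05) and border cells (2.4 ± 0.33, edgeR adjusted p = 0.0023), both without SI replicate 3. In LI, every row >3 library was under every centre library for Suox. With all libraries the difference of Suox from centre cells was 2.45, edgeR adjusted p = 0.11. With the block, Suox was called against centre cells (edgeR adjusted p = 0.0122), and Krt20 and Slc43a2 were not (edgeR adjusted p = 0.0516 and 0.0825).

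Rgs2, a regulator of G protein signals, had 2.24, 2.64 and 16.1 CPM in SI centre, 27, 11.5 and 15.4 in SI border and 86.6, 88.9 and 25.5 in SI row >3 cells, against 16.1, 10.1 and 10.001, 13.5, 13.3 and 13.1 and 13.8, 9.9 and 9.74 in LI (difference from centre 5.28 ± 0.43, edgeR adjusted p = 2.63e-07, and from border 2.53 ± 0.39, edgeR adjusted p = 0.00423, both without SI replicate 3; from centre 3.38, edgeR adjusted p = 0.318 with all libraries). Dmbt1, a mucosal scavenger protein, had 175, 167 and 2175 CPM in SI centre and 1799.6, 1533 and 5862 in SI row >3 cells, against 3507, 3661 and 3803 and 6092, 7123 and 8207 in LI (2.33 ± 0.18, edgeR adjusted p = 1.73e-07, without SI replicate 3). SI replicate 3 was the outlying SI library in each of these groups for Dmbt1, higher in all of them. Creb3l1, a factor of secretory cells, and Parm1, a membrane mucin, followed with positive differences of 2.83 and 2.52, without SI replicate 3. By list, tuft genes (12 of 18), glycan enzymes (13 of 22) and goblet genes (11 of 23) had the most members with a more positive difference from centre cells, against 2.57% of all genes, and stem cell and Wnt genes the most with a more negative one (6 of 24, against 0.699%), without SI replicate 3. Trpm5 of the tuft genes had 4.68, 9.25 and 108 CPM in SI centre and 89.1, 94.7 and 22.7 in SI row >3 cells, against 51.2, 36.4 and 29.1 and 22.8, 29.2 and 20.4 in LI (4.43 ± 0.66, edgeR adjusted p = 0.00341, without SI replicate 3). In border cells Trpm5 had 254.9, 80.7 and 124.7 CPM in SI and 64.1, 45.4 and 45.6 in LI. Its difference from border cells was 0.25 and did not pass without SI replicate 3. Of these genes Parm1 was also called against centre cells with the block and all libraries (edgeR adjusted p = 0.02), whereas Rgs2, Dmbt1, Creb3l1 and Trpm5 were not (edgeR adjusted p = 0.17, 0.0951, 0.234 and 0.808). For Rgs2, Dmbt1 and Trpm5 SI replicate 3 of centre cells lay apart from the other SI centre libraries. Their p-values without SI replicate 3 therefore rest on SI replicates 1 and 2 alone, a choice made after the data were seen.

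Of the 183 genes with a more negative difference, 182 had a lower SI mean in row >3 than in centre cells (replicates 1 and 2), while the LI mean was lower in row >3 cells for 128 and higher for 55. With the block and all libraries, 91 of the 183 were called in the same direction. Fads1 had 83.1, 61 and 62.6 CPM in SI centre, 39.5, 57.9 and 41.4 in SI border and 18.1, 23 and 20.7 in SI row >3 cells, against 86.3, 81.9 and 73.6, 73.3, 85.1 and 78.2 and 55.3, 73 and 66.3 in LI (difference from centre -1.48 ± 0.26, edgeR adjusted p = 0.00148, without SI replicate 3; -1.43, edgeR adjusted p = 0.11 with all libraries). Hmga2 had 35.5, 36.1 and 32.6 CPM in SI centre and 7.94, 10.7 and 14.6 in SI row >3 cells, against 37.1, 45.4 and 31.1 and 39.4, 33.2 and 25.8 in LI (-1.72 ± 0.3, edgeR adjusted p = 0.00124, without SI replicate 3). The centre libraries of SI and LI overlapped for both genes, whereas their row >3 libraries did not. Siva1 had 24.3, 17.1 and 17.3 CPM in SI centre and 4.85, 6.98 and 6.13 in SI row >3 cells, against 17.6, 22 and 26 and 19.4, 18.3 and 21.3 in LI (-1.64 ± 0.35, edgeR adjusted p = 0.00692, without SI replicate 3). Ptprs, a receptor phosphatase, had 78.9, 71 and 66 CPM in SI centre and 16.5, 18.4 and 44 in SI row >3 cells, against 52.3, 45.6 and 39.3 and 54.6, 45.4 and 42 in LI (-2.14 ± 0.25, edgeR adjusted p = 1.83e-05, without SI replicate 3). Pdgfa, a growth factor for mesenchyme, had 111, 138 and 52.2 CPM in SI centre and 17.1, 19.5 and 21.7 in SI row >3 cells, against 11.5, 8.98 and 7.44 and 21.5, 12.1 and 12.6 in LI (-3.49 ± 0.36, edgeR adjusted p = 7.14e-06, without SI replicate 3). Cbs, which makes cystathionine, had 26.4, 22.5 and 95.2 CPM in SI centre and 1.46, 3.02 and 116 in SI row >3 cells, against 147, 139 and 141 and 160.1, 133 and 149 in LI (difference -3.5 without SI replicate 3), with SI replicate 3 high in both groups and higher in row >3 than in centre cells. Of these genes Fads1, Hmga2, Siva1, Ptprs and Pdgfa were also called with the block and all libraries (edgeR adjusted p of 0.005, 0.00513, 0.00758, 0.0264 and 0.0227), and Cbs was not (edgeR adjusted p = 0.516).

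**Figure D5:**
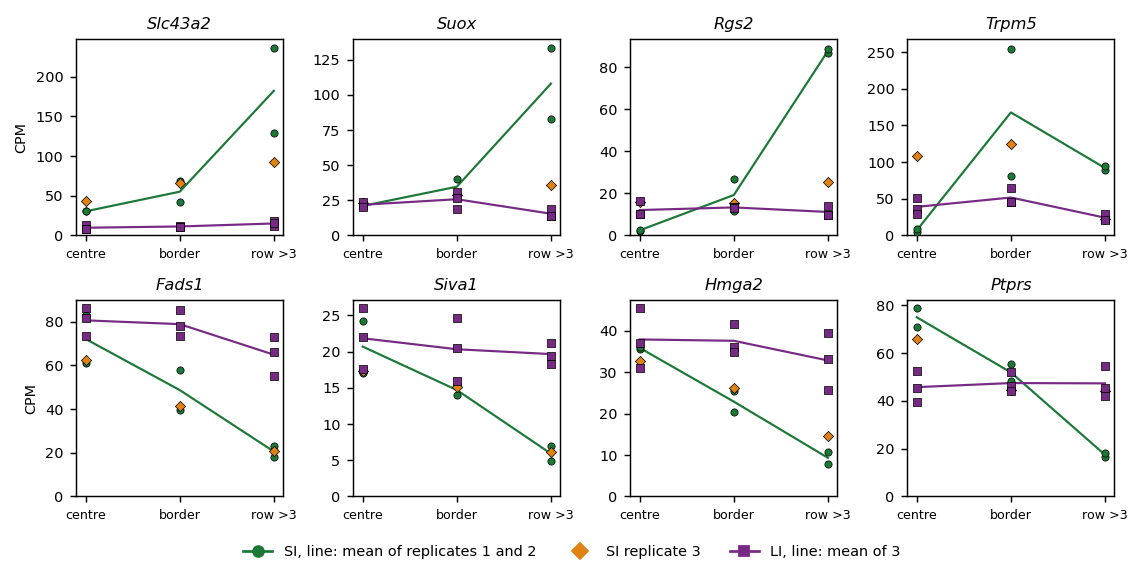
CPM (linear axes from 0) of 8 genes in centre, border and row >3 cells, with 3 libraries per group, SI and LI in each panel and SI replicate 3 as a diamond; lines join the means of SI replicates 1 and 2 and of all LI replicates. Slc43a2, Suox and Rgs2 are higher in SI row >3 than in SI centre libraries, Fads1, Siva1, Hmga2 and Ptprs are lower, and Trpm5 is low in SI replicates 1 and 2 of centre cells, at 4.68 and 9.25 CPM.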

How the data were processed

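RNA-seq libraries of centre, border and row >3 cells were compared from the table of raw counts per gene that the authors deposited (unit: count), 1 column per library. They demultiplexed the reads with bcl2fastq per the labels, trimmed them, aligned them to the mm10 genome and took gene counts from STAR. Annotation release and counting strand were not stated. Their table of normalised counts was not used here. Of 43346 gene identifiers, 42462 are in GENCODE M21 (GRCm38), the source of positions.

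Differences were tested with edgeR 4.0.16 in R 4.3.3 on counts with TMM factors, for 26717 genes with a mean count above 0, with glmQLFit (robust) in 1 fit of 6 groups with 12 residual degrees of freedom and Benjamini-Hochberg adjustment at 0.05. SI was compared with LI in row >3 cells, and this difference with that in centre and border cells. CPM are counts divided by the TMM-scaled library total, per 1e+06. Standard errors were derived from the quasi-likelihood F statistic. For a gene with no LI count the bound uses 3 counts over the LI group, and for 1 to 3 counts a ratio of pooled counts has an exact 95% interval; both cover counting error only. Deviations of libraries with equal replicate numbers were correlated across 14349 genes between the sites in row >3 cells (r of -0.04, 0.17 and 0.07). Sex matched by number and SI replicate 3 stood apart, so a low r cannot show that mice were not shared. SI and LI were compared unpaired. Within a site, row >3 and centre libraries of equal number deviated together (r between 0.325 and 0.611), as did row >3 and border libraries (r between 0.423 and 0.710), so a block within each site was an alternative for the differences between levels. Unequal numbers were not correlated as a reference. SI replicate 3 stood apart at every level, which can itself raise r within the SI, so a shared mouse was not shown. No libraries were duplicates.

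The members and the 29 lists (588 entries, of which 4 were not in the table and 11 had no count) were chosen with earlier results of these data known. Genes were named by a rule, namely up to 15 genes per direction with the smallest adjusted p whose sites did not overlap (no symbols of the Gm number or Rik type), up to 4 called members per list with the largest change and up to 2 most expressed members that did not pass, up to 5 genes per direction for each difference between levels, and Lgr5. Other named genes (Hnf4g, Nr5a2, Tbx3, Osr2, Abca1, Plin2, Scarb1, Slc6a19, Duox2, Sct, Pou2f3, Dll1, Ephb2, Cdk6, Fos, Egr1, Smoc2, Axin2, Vim, Cd79a, Krt8, Krt18, Itgam, C1qa, Csf1r, Adgre1, the genes named as lower without SI replicate 3, and list genes described between levels) were chosen after their values were seen. Some genes that this rule takes up are not reported here. Alternatives were DESeq2 1.42.0, RLE factors, library size only, filterByExpr, no filter, replicate blocks, the groups compared only, the legacy quasi-likelihood fit, each library left out and a fit without the SI replicate 3 libraries. DESeq2 without them was added after seeing the data. The fit was also run on simulated data, and no result of that run is given or used here. Promoter windows are RefSeq entries matched by symbol, found for 23 of the 30 genes named by p. Figures were drawn with matplotlib 3.10.9 in Python 3.11.15.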

Additional observations from a re-analysis of the deposited data

Results flagged for a closer look

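The SI minus LI difference in row >3 cells was not the same as that in centre cells for 857 genes without the SI replicate 3 libraries (edgeR, test of the difference, adjusted p under 0.05), against 0 with all libraries, or 620 with all libraries and the replicate as a block within each site. For border cells the same test called 30 genes without these libraries and 0 with them, with or without the block. Rgs2 and Suox were called against both levels and Slc43a2 against centre cells only, with the values given above.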

How the results depend on the processing

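The count of 1092 genes called between SI and LI row >3 cells was within 1.5 times of itself with RLE factors, library size only, filterByExpr, no filter, the groups compared only and the legacy quasi-likelihood fit (835 to 1371), and the share of genes higher in SI was 67.6% with TMM factors against 576 higher and 448 lower genes with library size only. It moved to 1693 with DESeq2, to 3184 without the SI replicate 3 libraries, to 3579 with DESeq2 without these libraries (this fit was chosen after seeing the data), and lay between 379 and 1686 with 1 row >3 library left out. Across the sites libraries of equal number deviated together little, which cannot show whether they came from the same mouse. The replicate block over all libraries gave 1840 genes and the replicate block within each site 3654 (1640 higher and 2014 lower in SI). The latter takes the spread between the replicates of a site out of the error, so it is no test of the sites across replicates. Its calls between the sites are not taken as results and stand only among the alternatives, whose tallies include them. For the site difference against centre cells, the replicate block over all libraries gave 13 genes and the replicate block within each site, where libraries of equal number deviated together, 620. The groups compared only gave 4, DESeq2 149, the fit without SI replicate 3 libraries 857 and DESeq2 without them 1494, and 1 library left out between 0 and 231. Against border cells the fit without these libraries gave 30 genes, DESeq2 without them 294 and 1 library left out between 0 and 1, while the replicate blocks gave 0. The cause was not tested in any of these. In the fit of the groups compared only, Fabp6, Sis, Slc15a1, Mmp7, Itln1, Cd44 and Itgam were not called (adjusted p between 0.063 and 0.149). Of 115 named genes called with all libraries, 65 were called in every alternative that gave an adjusted p (17, or 16 for Apoa1) and 115 had the same direction in all. Of 522 list counts under the alternatives, 380 were within 1.5 times of the count with all libraries. With 3 libraries a group, genes under a few CPM rest on few reads. Totals went down to 15757652 counts in row >3 libraries and to 8312093 in SI border replicate 1. For LI genes the level in SI replicate 3 may limit what could be called, which was not tested.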
